A study of Homo sapiens with 17 samples.

Results

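The genes described here belong to the BMP, activin and TGF-beta signalling pathway. They were chosen by symbol, as 10 named genes, with earlier results of these libraries known. Of these, 9 have a row among the 34496 gene rows of the count table, and TGFB1 was not analysed here. They are the ligand genes BMP2, BMP4, BMP7, INHBA and TGFB2, the secreted antagonist FST, the latent TGF-beta binding protein LTBP2, and the inhibitors SMAD7 and PMEPA1, which act inside the cell. Because they were picked with their values in view, their levels and differences are given as a description, with no p-value.

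RNA was sequenced from human head and neck cancer cell lines. The first set holds 2 libraries of Cal27 cells labelled as NSD1 knockout and cultured with EPZ-6438, another 2 of that labelled knockout in DMSO, and 2 of Cal27 in DMSO. A second, untreated set holds 1 library each of the labelled Cal27 NSD1 knockout, SKN3, BICR78 and Cal27. Cal27 is a line of tongue squamous cell carcinoma, NSD1 is an enzyme that methylates lysine 36 of histone H3, and EPZ-6438 (tazemetostat) inhibits EZH2, the enzyme that methylates lysine 27 of histone H3. DMSO, the usual solvent of such inhibitors, is the labelled treatment of the other libraries of the first set. The sources used here give neither the dose and time of EPZ-6438, nor how the knockout was made, nor whether it is 1 clone. No label says whether paired libraries came from separate cultures, so the spread between them may be technical.

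Ligands of this family bind a pair of type II and a pair of type I receptors at the cell surface, and the type I receptor then phosphorylates SMAD proteins that carry the signal to the nucleus. BMPs act mainly through SMAD1, SMAD5 and SMAD9 and induce the ID genes, whereas TGF-beta and activin act mainly through SMAD2 and SMAD3 and induce matrix genes such as FN1. In stratified epithelium TGF-beta is known as a brake on growth, and in carcinoma as an inducer of matrix production and invasion.

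All 9 genes passed the default low-count filter of edgeR, which kept 13241 genes. BMP4 lay above its limit of 0.725 CPM (counts per 1000000 of the library) in 5 of the 6 libraries of the first set, and BMP7 in 4 of 6. The libraries of BMP7 under the limit were both of the labelled knockout with DMSO, so BMP7 passed through the groups where it is higher. On assembly GRCh38.p14, RefSeq places BMP7 and PMEPA1 on chromosome 20, with 382 kb between them. BMP2 lies on the same chromosome, BMP4 and LTBP2 on chromosome 14, TGFB2 on 1, FST on 5, INHBA on 7 and SMAD7 on 18.

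Promoter windows, running from 250 bases before to 50 after an annotated start, were found in RefSeq for 7 of the 9 genes. The windows below belong to FST, INHBA, TGFB2 and LTBP2, the members that were higher in the labelled knockout with DMSO than in Cal27 with DMSO. They are shown because their content of CpG, the dinucleotide at which DNA is methylated and whose dense islands are typical sites of H3K27 methylation, differs widely. Each reads 5′ to 3′ on the strand of the gene, with CpG dinucleotides in capitals. The FST window lies at chr5:53480379-53480678 on the plus strand, the INHBA window at chr7:41703041-41703340 on the minus strand, the TGFB2 window at chr1:218345086-218345385 on the plus strand and the LTBP2 window at chr14:74612188-74612487 on the minus strand. The INHBA window lies inside the gene as RefSeq places it (chr7:41685114-41705406), so its start is an inner one. Those of FST, TGFB2 and LTBP2 are the outermost starts of their genes.
FST: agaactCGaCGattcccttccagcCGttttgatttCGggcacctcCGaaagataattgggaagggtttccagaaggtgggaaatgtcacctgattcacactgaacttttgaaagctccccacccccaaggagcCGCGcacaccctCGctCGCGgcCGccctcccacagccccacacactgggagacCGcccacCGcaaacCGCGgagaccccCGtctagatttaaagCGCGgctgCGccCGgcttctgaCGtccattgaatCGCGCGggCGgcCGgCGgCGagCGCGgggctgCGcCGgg
INHBA: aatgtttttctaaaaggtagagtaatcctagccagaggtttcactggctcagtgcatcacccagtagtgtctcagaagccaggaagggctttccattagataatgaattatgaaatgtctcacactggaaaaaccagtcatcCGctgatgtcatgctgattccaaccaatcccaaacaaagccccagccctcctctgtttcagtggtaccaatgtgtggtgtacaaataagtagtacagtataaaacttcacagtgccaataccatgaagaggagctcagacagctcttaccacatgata
TGFB2: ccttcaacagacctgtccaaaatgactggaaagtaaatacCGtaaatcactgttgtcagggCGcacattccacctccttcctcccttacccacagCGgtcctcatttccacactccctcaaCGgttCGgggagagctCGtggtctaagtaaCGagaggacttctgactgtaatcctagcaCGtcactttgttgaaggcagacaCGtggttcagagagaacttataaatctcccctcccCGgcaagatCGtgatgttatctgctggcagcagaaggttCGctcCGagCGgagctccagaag
LTBP2: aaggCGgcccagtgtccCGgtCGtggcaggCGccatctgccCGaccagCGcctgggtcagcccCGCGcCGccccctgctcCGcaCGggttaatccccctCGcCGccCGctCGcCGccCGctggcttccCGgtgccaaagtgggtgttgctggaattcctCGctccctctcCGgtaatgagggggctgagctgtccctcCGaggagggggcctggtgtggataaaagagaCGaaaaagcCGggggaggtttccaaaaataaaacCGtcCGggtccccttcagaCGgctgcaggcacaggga

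FST held 32 CpG dinucleotides in 300 bases and LTBP2 held 26, against 14 in TGFB2 and 1 in INHBA. The median over 35114 RefSeq windows of this length was 14. CpG was seen 1.07 times as often as base composition gives in FST, 0.77 times in LTBP2, 0.71 times in TGFB2 and 0.07 times in INHBA, with a median of 0.579 over all windows. Both strands were searched for GTCTAGAC (the palindromic SMAD element), GGCGCC (the GC-rich SMAD element), TGANTCA (AP-1), TGACGTCA (the cAMP response element) and GGAATG (TEAD). TGATTCA, a form of the AP-1 letters, stood 160 bases before the FST start, GGCGCC stood 222 bases before the LTBP2 start, and CATTCC, the TEAD letters on the other strand, stood 185 bases before the TGFB2 start. None of the 5 motifs was in the INHBA window. Of all windows, 7.71% held the AP-1 letters, 19.2% the GC-rich SMAD letters, 14% the TEAD letters, 1.85% the cAMP response element and 0.202% the palindromic SMAD element. A match is a string of letters and not a measured binding site.

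Levels are CPM after scaling by the trimmed mean of M-values (TMM) over the 10 libraries. They are not divided by gene length, so levels are compared between libraries and not between genes. In bulk RNA, fewer cells with a transcript and less transcript per cell cannot be told apart. Libraries of the first set held 11745655 to 15509079 counts and untreated libraries 17587063 to 21738951.

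NSD1 was measured at 161 and 150 CPM in the labelled knockout with EPZ-6438, 165 and 163 CPM in the labelled knockout with DMSO, and 113 and 114 CPM in Cal27 with DMSO. The NSD1 counts were thus higher in the libraries labelled as knockout (log2 0.53 ± 0.042 with DMSO, adjusted p = 4.2e-08, edgeR quasi-likelihood test with Benjamini-Hochberg adjustment), and they do not check that label. All 8 squamous epithelial markers were detected in every library. Their summed level was 2330 to 2360 CPM in the labelled knockout with EPZ-6438, 3590 to 3700 CPM in the labelled knockout with DMSO and 8210 to 8300 CPM in Cal27 with DMSO. It was 4330 CPM in the untreated labelled knockout, 6090 CPM in SKN3, 13100 CPM in BICR78 and 24300 CPM in untreated Cal27. The 7 fibroblast markers, which include COL1A1, summed to 21.3 to 25 CPM with EPZ-6438, 7.47 to 9.95 CPM in the knockout DMSO libraries and 18.8 to 20.6 CPM in the Cal27 DMSO libraries, with THY1 under 3 counts. The 6 immune markers summed to 229 to 235 CPM with EPZ-6438, 177 to 181 CPM in the knockout DMSO libraries and 81.6 to 82.1 CPM in the Cal27 DMSO libraries, with CD3E under 3 counts. Nearly all of this was LAPTM5, CD68 and CD14. PTPRC had means of 0.202, 0.223 and 0.331 CPM in the same order of groups. The 4 endothelial markers summed to 26.2 to 28.8 CPM with EPZ-6438, 20.6 to 23 CPM in the knockout DMSO libraries and 17.1 to 17.4 CPM in the Cal27 DMSO libraries, with KDR under 3 counts. Most of this was CDH5, with means of 24.7, 21.3 and 15 CPM in that order. PECAM1 (2.42, 0.223 and 0.738 CPM) and VWF (0.361, 0.231 and 1.4 CPM) were lowest in the knockout DMSO libraries. In the untreated set the fibroblast markers summed to 27.1 CPM in the labelled knockout, 48 CPM in SKN3, 55.3 CPM in BICR78 and 26.6 CPM in Cal27. The immune markers summed to 199 CPM in the untreated labelled knockout, 12 CPM in SKN3, 35.9 CPM in BICR78 and 73.8 CPM in untreated Cal27. The endothelial markers summed to 87.2 CPM in the untreated labelled knockout, 24.2 CPM in SKN3, 9.22 CPM in BICR78 and 5.55 CPM in untreated Cal27, with KDR under 3 counts in both of the pair and PECAM1 in Cal27. These sums move with the comparisons below, the untreated pair included, except that the fibroblast sum was nearly equal in that pair (27.1 and 26.6 CPM). Their part in any result was not tested.

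The comparisons ask how the pathway genes differ between the labelled NSD1 knockout and its parent, and how they differ when EZH2 is inhibited in the labelled knockout. A gene is called here when its adjusted p lies below 0.05. For the 9 genes, picked with their values in view, a call is part of the description here and below and is not taken as a test. Of the 9 genes, 4 were called higher and 3 lower in the labelled knockout with DMSO against Cal27 with DMSO, where 35.9% of all genes tested were called. With EPZ-6438 against DMSO in the labelled knockout, 4 were called higher and 2 lower, where 49.6% of all genes were called. For the labelled knockout with EPZ-6438 against Cal27 with DMSO, the counts were 4 higher and 3 lower, beside 52% of all genes. The median absolute log2 difference of the 9 genes was 0.632 in the knockout comparison, 0.745 in the inhibitor comparison and 0.923 in the last, against 0.173, 0.231 and 0.257 over all genes. Since the genes were picked with these comparisons known, nothing is read from those counts and medians. The 3 comparisons share libraries, so each gene's values are given side by side and agreement between comparisons is not counted as a result.

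**Figure D1:**
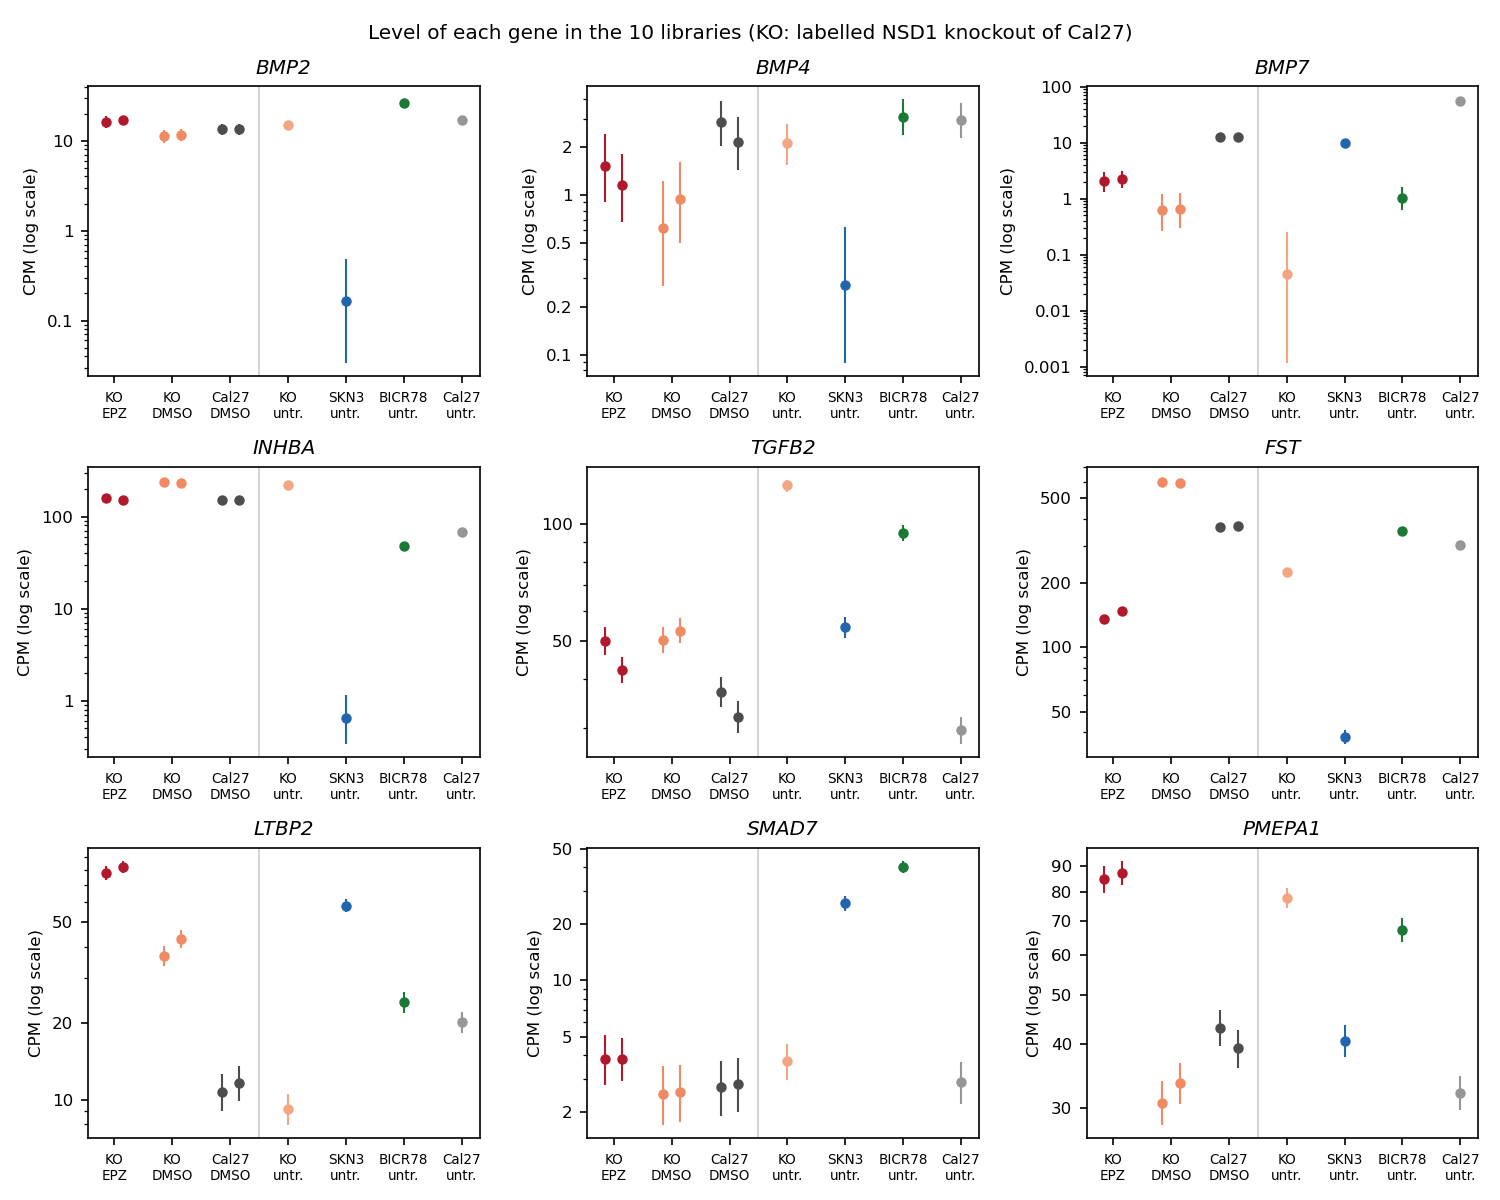
Level of each gene (CPM, log scale) in the 10 libraries: KO (the labelled NSD1 knockout) with EPZ-6438, KO with DMSO and Cal27 with DMSO (2 points each) left of the grey line, and the 4 untreated libraries (1 point each) right of it. Bars are exact 95% Poisson intervals and cover counting error only; BMP7 lies at 0.622 and 0.652 CPM in the knockout DMSO libraries and at 12.4 and 12.8 CPM in the Cal27 DMSO libraries, and FST is lowest with EPZ-6438 within the first set.

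Among the BMP ligands, BMP7, which acts in kidney, bone and epithelial development, showed the widest range. It was at 2.03 and 2.24 CPM in the labelled knockout with EPZ-6438, 0.622 and 0.652 CPM in the labelled knockout with DMSO, and 12.4 and 12.8 CPM in Cal27 with DMSO. The knockout DMSO libraries held 8 and 9 counts, and the 3 groups did not overlap. BMP7 was thus 19.6-fold lower in the labelled knockout than in Cal27, both with DMSO (log2 -4.29 ± 0.25, ± being the standard error of the fit throughout). With EPZ-6438 it was 3.34-fold higher than with DMSO (log2 1.74 ± 0.32), and still 5.85-fold lower than in Cal27 with DMSO (log2 -2.55 ± 0.20).

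BMP4, a ligand of ventral and epithelial patterning, was low throughout, with 8 to 39 counts in the 6 libraries. Its level was 1.52 and 1.15 CPM in the labelled knockout with EPZ-6438, 0.622 and 0.942 CPM in the labelled knockout with DMSO, and 2.86 and 2.15 CPM in Cal27 with DMSO. BMP4 was thus lowest in the knockout DMSO libraries and highest in Cal27. The fitted differences were log2 -1.67 ± 0.39 between the labelled knockout and Cal27, 0.74 ± 0.42 for EPZ-6438 against DMSO, and -0.92 ± 0.35 for the labelled knockout with EPZ-6438 against Cal27. The second of these was not called, and the call of the last was lost in DESeq2, without either EPZ-6438 library (-1.12 and -0.72) and without either Cal27 DMSO library (-0.71 and -1.11).

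BMP2, a ligand known for bone formation, moved least of the BMP genes. It stood at 16.3 and 16.9 CPM in the labelled knockout with EPZ-6438, 11.2 and 11.6 CPM in the labelled knockout with DMSO, and 13.4 and 13.4 CPM in Cal27 with DMSO. The labelled knockout was thus highest with EPZ-6438 and lowest with DMSO, with Cal27 between. On the log2 scale the differences were -0.24 ± 0.11 for the knockout comparison, which was not called, 0.55 ± 0.11 for the inhibitor and 0.30 ± 0.11 for the labelled knockout with EPZ-6438 against Cal27. The call of the last was lost in DESeq2, without the second EPZ-6438 library (0.27) and without either Cal27 DMSO library (0.30 each).

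INHBA encodes the beta A chain of activin A, and FST encodes follistatin, the secreted protein that binds and blocks activin. INHBA was at 158 and 153 CPM in the labelled knockout with EPZ-6438, 239 and 231 CPM in the labelled knockout with DMSO, and 150 and 152 CPM in Cal27 with DMSO. The knockout DMSO libraries were the highest, and the other 2 groups lay close together. The labelled knockout stood at log2 0.63 ± 0.036 against Cal27, both with DMSO, and EPZ-6438 at log2 -0.59 ± 0.036 against DMSO. Against Cal27 with DMSO, the EPZ-6438 libraries stood at log2 0.04 ± 0.038.

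FST was also highest in the labelled knockout with DMSO, but with EPZ-6438 it stood well under the level of Cal27. Its level was 136 and 149 CPM in the labelled knockout with EPZ-6438, 595 and 589 CPM in the labelled knockout with DMSO, and 368 and 370 CPM in Cal27 with DMSO. It was 1.59-fold higher in the labelled knockout than in Cal27 with DMSO (log2 0.67 ± 0.032). With EPZ-6438 it was 4.13-fold lower than with DMSO (log2 -2.05 ± 0.036) and 2.59-fold lower than in Cal27 (log2 -1.37 ± 0.038). FST has the CpG-dense window printed above and INHBA the CpG-poor one, at an inner start. A link between CpG content and these differences was not tested.

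TGFB2 encodes a TGF-beta ligand that is secreted in latent form. It was at 50.1 and 42.1 CPM in the labelled knockout with EPZ-6438, 50.4 and 53.3 CPM in the labelled knockout with DMSO, and 37 and 32 CPM in Cal27 with DMSO. Both knockout groups lay above Cal27, and the knockout groups nearly touched. The differences were log2 0.58 ± 0.085 in the knockout DMSO libraries and 0.40 ± 0.086 in the EPZ-6438 libraries, each against Cal27 with DMSO. The inhibitor difference of -0.17 ± 0.081 was not called. It depended on 1 library, at -0.30 and called without the first EPZ-6438 library, and at -0.05 and not called without the second.

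LTBP2, a matrix protein of elastic fibres that belongs to the latent TGF-beta binding proteins but is not known to bind the latent ligand, was higher at each step. It was at 77.8 and 82.1 CPM in the labelled knockout with EPZ-6438, 36.8 and 42.9 CPM in the labelled knockout with DMSO, and 10.7 and 11.6 CPM in Cal27 with DMSO. The 3 groups stood well apart. LTBP2 was 3.56-fold higher in the labelled knockout with DMSO than in Cal27 (log2 1.83 ± 0.098), 2.01-fold higher with EPZ-6438 than with DMSO (log2 1.01 ± 0.070) and 7.15-fold higher in the labelled knockout with EPZ-6438 than in Cal27 (log2 2.84 ± 0.088).

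PMEPA1 and SMAD7 encode feedback inhibitors that TGF-beta signalling itself is known to induce. PMEPA1 was at 84.8 and 87.3 CPM in the labelled knockout with EPZ-6438, 30.6 and 33.5 CPM in the labelled knockout with DMSO, and 43.1 and 39.3 CPM in Cal27 with DMSO. EPZ-6438 was the highest group and the labelled knockout with DMSO the lowest. The log2 difference was -0.37 ± 0.072 for the knockout, 1.43 ± 0.064 for the inhibitor and 1.06 ± 0.062 for the labelled knockout with EPZ-6438 against Cal27. SMAD7 was low, at 3.81 and 3.84 CPM in the labelled knockout with EPZ-6438, 2.49 and 2.54 CPM in the labelled knockout with DMSO, and 2.71 and 2.82 CPM in Cal27 with DMSO. The EPZ-6438 libraries were the highest, yet with 32 to 60 counts a library none of its differences was called (log2 -0.145 ± 0.26 for the knockout, 0.61 ± 0.25 for the inhibitor and 0.46 ± 0.24 for the last comparison).

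**Figure D2:**
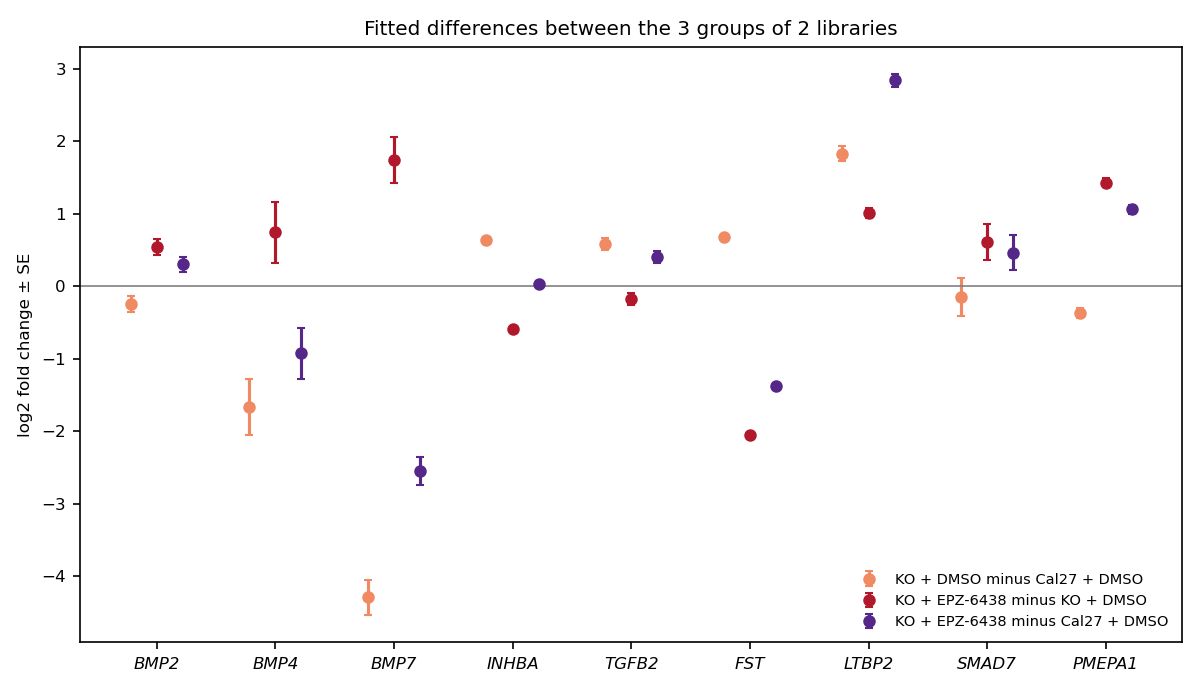
Fitted log2 difference ± SE of each gene in the 3 comparisons of the first set (2 libraries a group). BMP7 has the lowest value, -4.29 for the labelled knockout against Cal27, and LTBP2 the highest, 2.84 for the labelled knockout with EPZ-6438 against Cal27; FST and PMEPA1 with EPZ-6438 against DMSO lie at -2.05 and 1.43.

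The rest of the pathway was read from 12 lists of ligands, antagonists, receptors, SMADs and targets, 128 genes in all, of which 73 outside the chosen 9 were tested. Among these 73, 20 rose and 20 fell in the labelled knockout with DMSO against Cal27, or 54.8% beside 35.9% of all genes. With EPZ-6438 against DMSO, 27 rose and 13 fell, again 54.8%, beside 49.6% of all genes. Their median log2 difference was 0.00901 in the knockout comparison and 0.20 in the inhibitor comparison, against -0.00613 and 0.00291 over all genes. For the labelled knockout with EPZ-6438 against Cal27, 29 rose and 16 fell, or 61.6% beside 52%. The lists were chosen with earlier results known. Some of their genes, such as SMAD6, SMAD9, MSX2, RGMA, FBN1 and INHBE, passed the low-count limit through groups where they were higher. Nothing is thus read from these shares as a whole. Adjusted p-values below are from the edgeR quasi-likelihood test with Benjamini-Hochberg adjustment over all 13241 genes.

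Of 8 tested genes known to be induced by BMP through SMAD1 and SMAD5, outside the chosen genes, 6 were called lower and none higher in the labelled knockout with DMSO, and 5 were called higher and none lower with EPZ-6438. The percentages called were 75% and 62.5%, beside the 35.9% and 49.6% of all genes. SMAD6, SMAD9, ID2 and MSX2 lay under the low-count limit in both knockout DMSO libraries and so passed it through groups where they were higher, as BMP7 did, which fixed the direction in which they could differ; nothing is read from these counts as a whole. ID1, ID3 and HEY1 lay above the limit in all 6 libraries and fell in the labelled knockout. ID1, an inhibitor of differentiation factors, was at 75.2 and 82.6 CPM in the labelled knockout with EPZ-6438, 37.5 and 40.5 CPM in the labelled knockout with DMSO, and 98.7 and 99 CPM in Cal27 with DMSO. The groups stood apart in the order Cal27, EPZ-6438, DMSO from high to low, as they did for BMP7. ID1 fell in the labelled knockout (log2 -1.35 ± 0.060, adjusted p = 1.9e-11) and rose with EPZ-6438 (1.02 ± 0.062, adjusted p = 5.4e-10).

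ID3, a relative of ID1, was at 31.7 and 30.7 CPM in the labelled knockout with EPZ-6438, 16.7 and 16.4 CPM in the labelled knockout with DMSO, and 42.5 and 44.9 CPM in Cal27 with DMSO. It fell in the labelled knockout (-1.41 ± 0.079, adjusted p = 3.7e-10) and rose with EPZ-6438 (0.92 ± 0.083, adjusted p = 9.5e-08). SMAD6, which inhibits BMP receptors, was at 3.39 and 3 CPM in the labelled knockout with EPZ-6438, 0.233 and 0.362 CPM in the labelled knockout with DMSO, and 1.83 and 1.11 CPM in Cal27 with DMSO. It was the gene of this list with the largest inhibitor difference (log2 3.37 ± 0.45), beside -2.27 ± 0.50 in the labelled knockout, on few counts. SMAD9, a BMP-activated SMAD, was at 1.19 to 1.21 CPM in the labelled knockout with EPZ-6438. It was at 0.145 to 0.233 CPM in the labelled knockout with DMSO and 1.32 to 1.33 CPM in Cal27 with DMSO. Its differences were -2.77 ± 0.57 in the labelled knockout and 2.62 ± 0.58 with EPZ-6438. Those of SMAD6 and SMAD9 are given as a description, since both passed the low-count limit through groups where they were higher. MSX2, a homeobox factor, was at 0.169 and 0.447 CPM in the labelled knockout with EPZ-6438, 0.0777 and 0.145 CPM in the labelled knockout with DMSO, and 1.32 and 1.63 CPM in Cal27 with DMSO. Cal27 was its one group above the low-count limit, and the knockout DMSO libraries held 1 and 2 counts, so its knockout difference (log2 -3.62 ± 0.68) is given as a description. Its inhibitor difference of 1.46 ± 0.91 was not called (adjusted p = 0.19). HEY1, a repressor also induced by Notch, fell (-1.45 ± 0.36, adjusted p = 0.0044), a call lost in DESeq2 (adjusted p = 0.057). ID2 was not called in the labelled knockout (log2 -1.54 ± 0.64, adjusted p = 0.071). Its inhibitor difference (2.56 ± 0.56) is given as a description, for the same reason as that of SMAD9. MSX1 also lay above the limit in all 6 libraries and was called in neither comparison (0.18 ± 0.29 in the labelled knockout and -0.18 ± 0.29 with EPZ-6438). BAMBI, a decoy receptor on the same list, was at 0 to 0.169 CPM across the first set and was not tested.

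Genes known to be induced by TGF-beta or activin through SMAD2 and SMAD3 moved both ways. Of 15 tested outside the chosen genes, 4 rose and 5 fell in the labelled knockout (60%, beside 35.9% of all genes). With EPZ-6438, 4 rose and 2 fell (40%, beside 49.6%). FN1, the matrix protein fibronectin, was at 425 and 441 CPM in the labelled knockout with EPZ-6438, 285 and 285 CPM in the labelled knockout with DMSO, and 158 and 154 CPM in Cal27 with DMSO. Its level was highest with EPZ-6438 and lowest in Cal27. FN1 rose in the labelled knockout (0.86 ± 0.034, adjusted p = 3.6e-12) and with EPZ-6438 (0.61 ± 0.030, adjusted p = 4.1e-11). COL4A1, a basement membrane collagen, rose in the labelled knockout (0.96 ± 0.043, adjusted p = 1.9e-11) and fell with EPZ-6438 (-0.50 ± 0.041, adjusted p = 3e-08). COL1A1, a fibrillar collagen, did the reverse, with log2 -1.26 ± 0.18 in the labelled knockout (adjusted p = 2.7e-05) and 0.86 ± 0.18 with EPZ-6438 (adjusted p = 0.00083). SKIL, a SMAD-binding repressor, rose in the labelled knockout (0.47 ± 0.072, adjusted p = 7.4e-05), whereas the transcription factors JUNB (-0.51 ± 0.049, adjusted p = 3.1e-07) and BHLHE40 (-0.41 ± 0.058, adjusted p = 2.9e-05) fell. CCN2 (0.26 ± 0.14, adjusted p = 0.16) and TGFBI (-0.05 ± 0.026, adjusted p = 0.14) were not called in the labelled knockout, nor with EPZ-6438.

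**Figure D3:**
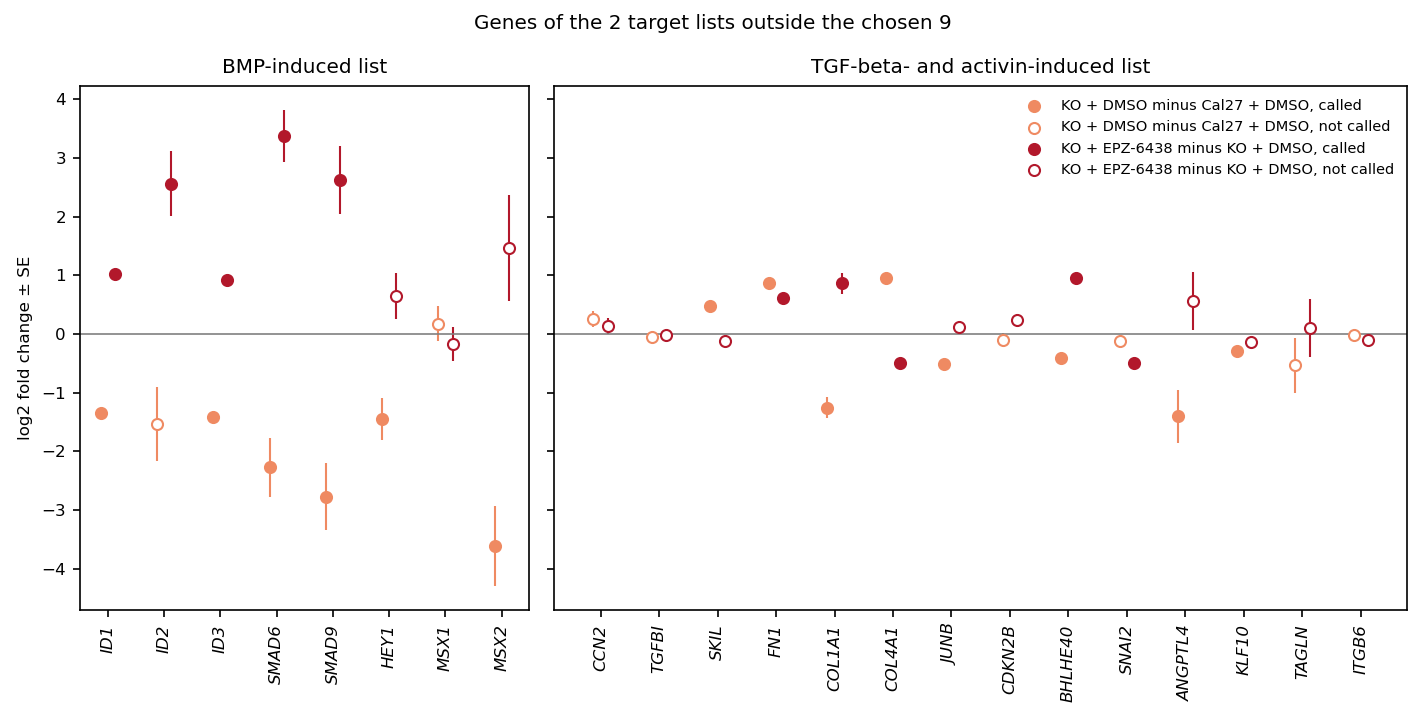
Fitted log2 difference ± SE of tested genes on the BMP-induced list and on the TGF-beta- and activin-induced list, outside the chosen 9, in 2 comparisons: KO (the labelled knockout) against Cal27 in DMSO, and EPZ-6438 against DMSO in KO. Filled points have an adjusted p below 0.05, as did 35.9% of all genes in the knockout comparison and 49.6% with EPZ-6438. On the BMP-induced list, SMAD6, SMAD9, ID2 and MSX2 lay under the low-count limit in both knockout DMSO libraries, so nothing is read from the number called. The TGF-beta- and activin-induced list holds calls of both signs.

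Several receptor genes changed. In the labelled knockout, 3 of 4 tested type II receptors rose (75%, beside 35.9% of all genes). They were TGFBR2 (0.36 ± 0.054, adjusted p = 5.1e-05), ACVR2A (0.65 ± 0.15, adjusted p = 0.0026) and ACVR2B (0.53 ± 0.19, adjusted p = 0.041, a call lost in DESeq2, without either knockout DMSO library at 0.56 and 0.51, and without the second Cal27 DMSO library at 0.38). BMPR2 was not called (-0.09 ± 0.075, adjusted p = 0.4). Of 6 type I receptors, 33.3% were called in that comparison, close to the 35.9% of all genes. TGFBR1, the TGF-beta kinase receptor, fell (-0.50 ± 0.084, adjusted p = 0.00017) and the BMP receptor BMPR1A rose (0.29 ± 0.072, adjusted p = 0.004), a call lost without the second Cal27 DMSO library (0.25). ACVR1 was not called there (0.05 ± 0.091, adjusted p = 0.72). With EPZ-6438, 4 of the 6 type I receptors rose (66.7%, beside 49.6% of all genes), and 2 of the 6 in DESeq2 or without the first EPZ-6438 library. They were TGFBR1 (0.95 ± 0.080, adjusted p = 4.2e-08), ACVR1B (0.36 ± 0.069, adjusted p = 0.00035), ACVR1C (0.34 ± 0.13, adjusted p = 0.042, a call lost in DESeq2, without either EPZ-6438 library at 0.26 and 0.42, and without the first knockout DMSO library at 0.25) and ACVR1 (0.29 ± 0.088, adjusted p = 0.011, a call lost in DESeq2, without the first EPZ-6438 library at 0.25 and without the second knockout DMSO library at 0.29). TGFBR1 was at 46.3 and 42.4 CPM in the labelled knockout with EPZ-6438, 24.2 and 21.7 CPM in the labelled knockout with DMSO, and 31.5 and 33.2 CPM in Cal27 with DMSO. BMPR2, the type II BMP receptor, rose with EPZ-6438 (0.51 ± 0.072, adjusted p = 1.5e-05), and TGFBR2, ACVR2A and BMPR1A were not called. Of 6 SMADs activated by receptors or shared, 1 rose and 1 fell in the labelled knockout (33.3%, close to the 35.9% of all genes). With EPZ-6438, 3 rose (50%, close to 49.6%). These counts include SMAD9, which passed the low-count limit through groups where it was higher. SMAD3, a carrier of TGF-beta and activin signals, rose in both comparisons (0.31 ± 0.039, adjusted p = 9.6e-06, and 0.33 ± 0.037, adjusted p = 1.4e-06). SMAD1, a carrier of BMP signals, rose with EPZ-6438 (0.30 ± 0.10, adjusted p = 0.026, a call lost in DESeq2, without the second EPZ-6438 library at 0.25 and without either knockout DMSO library at 0.29 and 0.31) and was at 0.02 ± 0.11 in the labelled knockout (adjusted p = 0.92). SMAD2, SMAD4 and SMAD5 were called in neither comparison. Of 3 tested co-receptors, 66.7% were called in each of these comparisons, beside 35.9% and 49.6% of all genes. RGMB rose in the labelled knockout (0.30 ± 0.093, adjusted p = 0.017, lost in DESeq2, without the first knockout DMSO library at 0.25 and without the first Cal27 DMSO library at 0.27). RGMA, also counted, lay under the low-count limit in both knockout DMSO libraries. Its knockout difference (-2.11 ± 0.53) is given as a description, and its call was lost without the first Cal27 DMSO library (-1.6). With EPZ-6438, RGMB fell (-0.60 ± 0.095, adjusted p = 5.9e-05), ENG rose (1.40 ± 0.38, adjusted p = 0.0061, lost in DESeq2, without the second EPZ-6438 library at 1.35 and without the second knockout DMSO library at 1.22) and RGMA was not called.

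Secreted antagonists other than FST went several ways. Of 7 tested, 2 rose and 3 fell in the labelled knockout (71.4%, beside 35.9% of all genes), and 2 rose and 2 fell with EPZ-6438 (57.1%, beside 49.6%). Without the first Cal27 DMSO library or the second knockout DMSO library the knockout counts were 1 and 2. The calls that did not hold were those of NBL1 (-0.15 ± 0.058, adjusted p = 0.049), which was also lost in DESeq2, on library sizes alone and without the first knockout DMSO library, and of TWSG1, a BMP-binding protein (0.24 ± 0.073, adjusted p = 0.017), also lost without the second Cal27 DMSO library (0.24). With EPZ-6438 the TWSG1 difference of -0.19 ± 0.072 (adjusted p = 0.036) was not called in DESeq2, without either knockout DMSO library (-0.22 and -0.17) or without the second EPZ-6438 library (-0.06). FSTL3, a follistatin relative that also binds activin, was at 15.3 and 13.8 CPM in the labelled knockout with EPZ-6438, 6.92 and 6.67 CPM in the labelled knockout with DMSO, and 10.3 and 11.6 CPM in Cal27 with DMSO. Its order of groups was the opposite of that of FST. FSTL3 fell in the labelled knockout (-0.70 ± 0.14, adjusted p = 0.00089) and rose with EPZ-6438 (1.10 ± 0.14, adjusted p = 4.2e-06). FSTL1, a follistatin-like secreted protein, fell in the labelled knockout (-0.66 ± 0.088, adjusted p = 1.7e-05) and rose with EPZ-6438 (1.46 ± 0.081, adjusted p = 1.9e-10), and CRIM1, a membrane-bound BMP antagonist, rose in the labelled knockout (0.41 ± 0.039, adjusted p = 2.9e-07) and fell with EPZ-6438 (-0.64 ± 0.040, adjusted p = 7.6e-10).

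Among genes of latent TGF-beta storage and activation, 3 rose, 3 fell and 6 were not called in the labelled knockout (50% called, beside 35.9% of all genes), and 4 rose and 3 fell with EPZ-6438 (58.3%, close to the 49.6% of all genes). With the untreated pair added to the fit, 1 rose and none fell in the labelled knockout. FBN1, the fibrillin gene counted among those that fell (-1.54 ± 0.55), lost its call in DESeq2 and without any 1 of the 6 libraries (-1.58 to -1.49). It lay under the low-count limit in both knockout DMSO libraries, so its difference is given as a description. THBS1, thrombospondin 1, an activator of latent TGF-beta, was at 340 and 341 CPM in the labelled knockout with EPZ-6438, 2210 and 2200 CPM in the labelled knockout with DMSO, and 1160 and 1150 CPM in Cal27 with DMSO. It had the order of groups of FST. LTBP1, which tethers latent TGF-beta to the matrix, fell in the labelled knockout (-1.59 ± 0.21, adjusted p = 1.4e-05), where LTBP2 was higher, and was not called with EPZ-6438 (0.50 ± 0.23, adjusted p = 0.085). With EPZ-6438 the integrin chain ITGB8, part of an activator of latent TGF-beta, rose (0.65 ± 0.056, adjusted p = 5.2e-08) and ITGAV, its partner chain, fell (-0.57 ± 0.037, adjusted p = 1.2e-09).

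Few other ligand genes of the family were expressed enough to test. GDF15, a stress-induced ligand, was at 223 and 232 CPM in the labelled knockout with EPZ-6438, 78.0 and 67.3 CPM in the labelled knockout with DMSO, and 40.4 and 36.6 CPM in Cal27 with DMSO. It rose in the labelled knockout (0.90 ± 0.072, adjusted p = 3.3e-08) and with EPZ-6438 (1.66 ± 0.055, adjusted p = 1.3e-13). TGFB3, a TGF-beta ligand, was not called in the labelled knockout (0.11 ± 0.35, adjusted p = 0.84) and fell with EPZ-6438 (-0.996 ± 0.38, adjusted p = 0.041), a call lost in DESeq2 and without any 1 of the 6 libraries (-1.07 to -0.91). INHBE, an activin chain gene, lay under the low-count limit in both Cal27 DMSO libraries and 1 EPZ-6438 library. It thus passed that limit through libraries where it was higher, and its differences are given as a description. They were 1.91 ± 0.43 in the labelled knockout and -1.47 ± 0.41 with EPZ-6438. The inhibitor call was lost in DESeq2, without the second EPZ-6438 library (-1.27) and without the first knockout DMSO library (-1.16). BMP8B, another BMP family ligand, rose with EPZ-6438 (1.43 ± 0.30, adjusted p = 0.00082).

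Of 11 tested intracellular inhibitors outside the chosen genes, 4 rose and 2 fell in the labelled knockout (54.5%, beside 35.9% of all genes). With EPZ-6438, 3 rose and 3 fell (54.5%, close to the 49.6% of all genes). SMURF2, a ubiquitin ligase that removes receptors and SMADs, rose in the labelled knockout (0.60 ± 0.055, adjusted p = 2.4e-07) and fell with EPZ-6438 (-0.53 ± 0.055, adjusted p = 5.5e-07). NEDD4L, another ubiquitin ligase, also rose in the labelled knockout (0.49 ± 0.046, adjusted p = 3.2e-07) and fell with EPZ-6438 (-0.22 ± 0.045, adjusted p = 0.00073).

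The untreated set gave a second pair of the labelled knockout and Cal27 from other libraries, with 1 library each and so no replicate check and no test. Values there are log2 differences of CPM with a prior count of 2, and ratios carry exact 95% counting intervals. Of the 9 genes, 5 differed by 2-fold or more, beside 16.9% of 14753 genes. INHBA was at 218 CPM in the untreated labelled knockout and 68.5 CPM in untreated Cal27, a ratio of 3.19 (3 to 3.38). TGFB2 was at 126 CPM in the untreated labelled knockout and 29.5 CPM in untreated Cal27, a ratio of 4.26 (3.9 to 4.66). Both were higher in the labelled knockout, as with DMSO. BMP7 held 1 count in the untreated labelled knockout against 1173 in Cal27, and was 1230-fold lower (219 to 48400).

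PMEPA1, LTBP2 and FST went the other way in the untreated pair. PMEPA1 was at 77.9 CPM in the untreated labelled knockout and 32 CPM in untreated Cal27 (log2 1.28, against -0.37 with DMSO). LTBP2 was at 9.15 CPM in that labelled knockout and 20.2 CPM in Cal27 (log2 -1.13, against 1.83 with DMSO). FST was at 226 CPM in that labelled knockout and 301 CPM in Cal27 (log2 -0.41, against 0.67 with DMSO). These are 3 of the 7 genes called with DMSO, or 42.9%, where 23.1% of all 4749 called genes, and 13.8% of the 863 called at 2-fold or more, were opposite in the untreated pair. The 7 were picked with earlier results known and the untreated groups are single libraries, so nothing is read from that share. SMAD7, not called with DMSO, also had the other sign, with a ratio of 1.29 (0.914 to 1.84). With the untreated pair added to the fit and the set as a term, the difference was 0.21 for PMEPA1, 0.84 for LTBP2 and 0.32 for FST, and none of these was called.

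The DMSO and untreated sets also differ within 1 cell label. With DMSO minus untreated, PMEPA1 stood at log2 -1.28 in the labelled knockout and 0.361 in Cal27. For LTBP2 the same differences were 2.1 in the labelled knockout and -0.851 in Cal27, and for FST 1.39 in the labelled knockout and 0.297 in Cal27. For BMP7 they were 2.17 in the labelled knockout and -2.15 in Cal27. The median absolute difference over all genes was 0.315 in the labelled knockout and 0.314 in Cal27. The labels give no dates, so DMSO itself, culture and library preparation cannot be told apart as sources of the gap between the sets.

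The other pathway genes were set side by side in the same way. Among other pathway genes called with DMSO, 34 of 40 had the same direction in the untreated pair and 6, or 15%, the opposite one. Of all 4749 called genes, 23.1% had the opposite direction. SMAD6, SMAD9, MSX2, RGMA, FBN1 and INHBE, all counted as having the same direction, passed the low-count limit through groups where they were higher. Nothing is thus read from the share of 15%. ID1, ID3 and HEY1 (log2 -1.89) were lower in the untreated pair too. They are the BMP-induced genes called with DMSO that lay above the low-count limit throughout the first set. MSX1, also above that limit throughout, stood at log2 0.178 with DMSO, not called, and at -0.207 in the untreated pair. SMAD6, SMAD9 and MSX2 were also lower. They passed that limit through groups where they were higher, so nothing is read from their direction. ID1 was at 12.1 CPM in the untreated labelled knockout and 96.9 CPM in untreated Cal27 (log2 -2.99), ID3 at 44.9 CPM in the labelled knockout and 68 CPM in Cal27 (log2 -0.596), and SMAD6 at 0.503 CPM in the labelled knockout and 4.88 CPM in Cal27 (log2 -3.00). FSTL3, LTBP1, ITGAV, ACVR2A, ACVR2B and COL1A1 were the 6 genes with opposite direction, named here after their values were seen. With the untreated pair added to the fit, 13 other pathway genes lost their calls, among them these 6 and BMPR1A. In that fit, 2 genes gained a call, ID2 (log2 -1.71) and ENG (log2 1.76). ID2 lay under the low-count limit in both knockout DMSO libraries and ENG in both Cal27 DMSO libraries, so nothing is read from these 2 calls. The difference between the sets was not tested for single genes.

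**Figure D4:**
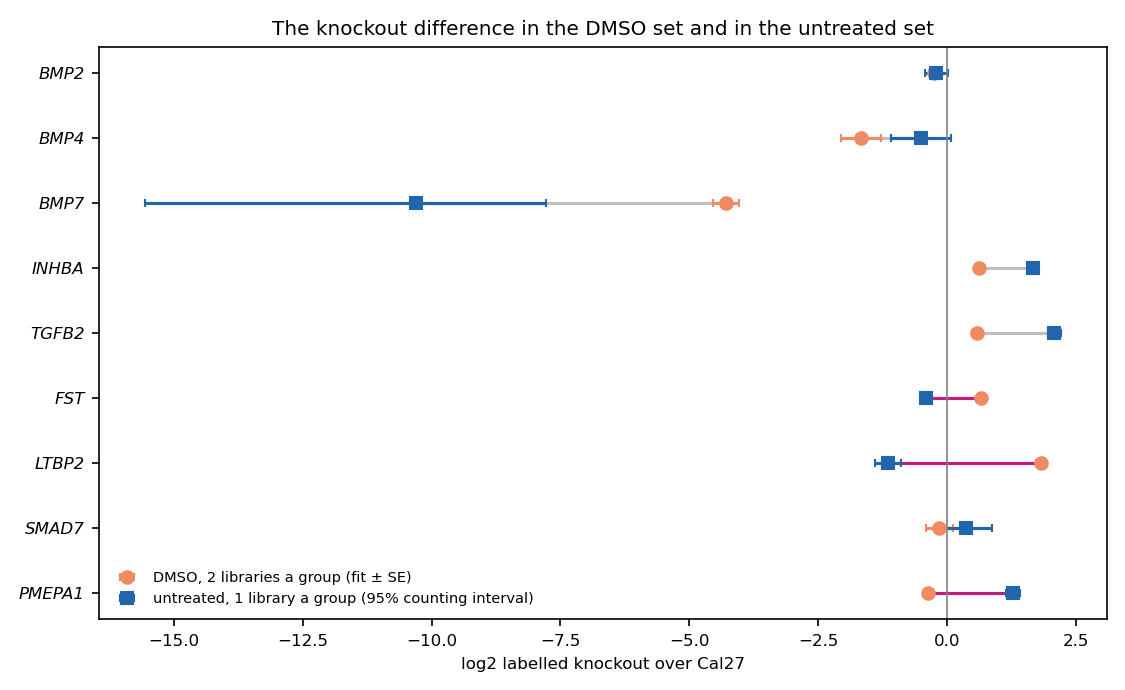
Log2 difference of the labelled knockout from Cal27 for each gene in the DMSO libraries (circles, fit ± SE, 2 libraries a group) and in the untreated libraries (squares, 1 library a group, with no prior count, 95% counting interval). The joining line is coloured where the 2 values have opposite signs, as for FST, LTBP2, SMAD7 and PMEPA1; BMP7 is the lowest in both sets.

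The untreated set also holds SKN3 and BICR78, of which the labels say that they are head and neck cancer lines. Of the 9 genes, 7 differed by 2-fold or more between SKN3 and Cal27, beside 40.4% of all genes, and 4 between BICR78 and Cal27, beside 28.2%. SMAD7 was at 3.71 CPM in the labelled knockout, 25.7 CPM in SKN3, 40.1 CPM in BICR78 and 2.87 CPM in Cal27. The intervals of the labelled knockout and Cal27 overlapped, while SKN3 was 8.94-fold (6.83 to 11.9) and BICR78 14-fold (10.7 to 18.5) higher than Cal27. SMAD6, the related inhibitor, was at 0.503 CPM in the labelled knockout, 26.0 CPM in SKN3, 43.0 CPM in BICR78 and 4.88 CPM in Cal27. ID3 was at 44.9 CPM in the labelled knockout, 133 CPM in SKN3, 516 CPM in BICR78 and 68 CPM in Cal27. For both, SKN3 and BICR78 were above the Cal27 pair, with BICR78 highest.

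SKN3 was nearly without INHBA and BMP2. INHBA was at 0.652 CPM in SKN3 (12 counts) and 47.4 CPM in BICR78, against 68.5 CPM in Cal27, so SKN3 was 105-fold lower than Cal27 (59.9 to 204). BMP2 held 3 counts in SKN3 against 358 in Cal27, a ratio of 0.00953 (0.00196 to 0.0281), and was at 26.5 CPM in BICR78 and 17.1 CPM in Cal27. FST was likewise lowest in SKN3, at 37.9 CPM, with 353 CPM in BICR78 and 301 CPM in Cal27. BMP4 held 5 counts in SKN3 and was 10.9-fold lower than in Cal27 (4.43 to 34.8), while BICR78, the labelled knockout and Cal27 had overlapping intervals. THBS1, the activator of latent TGF-beta, was at 5.54 CPM in SKN3, 609 CPM in BICR78 and 938 CPM in Cal27.

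For TGFB2 the order from high to low was the labelled knockout (126 CPM), BICR78 (95.2 CPM), SKN3 (54.3 CPM) and Cal27 (29.5 CPM), with no overlap of intervals. LTBP2 was highest in SKN3 at 58 CPM and lowest in the labelled knockout at 9.15 CPM. BICR78, at 24.2 CPM, and Cal27, at 20.2 CPM, had intervals that overlapped narrowly, with a ratio of 1.2 (1.05 to 1.37). PMEPA1 was at 77.9 CPM in the labelled knockout, 40.6 CPM in SKN3, 67.4 CPM in BICR78 and 32 CPM in Cal27. Cal27 was thus the lowest of the 4 lines for TGFB2 and PMEPA1, and the highest for BMP7. BMP7 was 54.2-fold lower in BICR78 (34.9 to 89) and 5.64-fold lower in SKN3 (4.82 to 6.62) than in Cal27. NSD1 itself was at 205 CPM in the labelled knockout, 80.6 CPM in SKN3, 0.466 CPM in BICR78 (9 counts) and 150 CPM in Cal27.

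**Figure D5:**
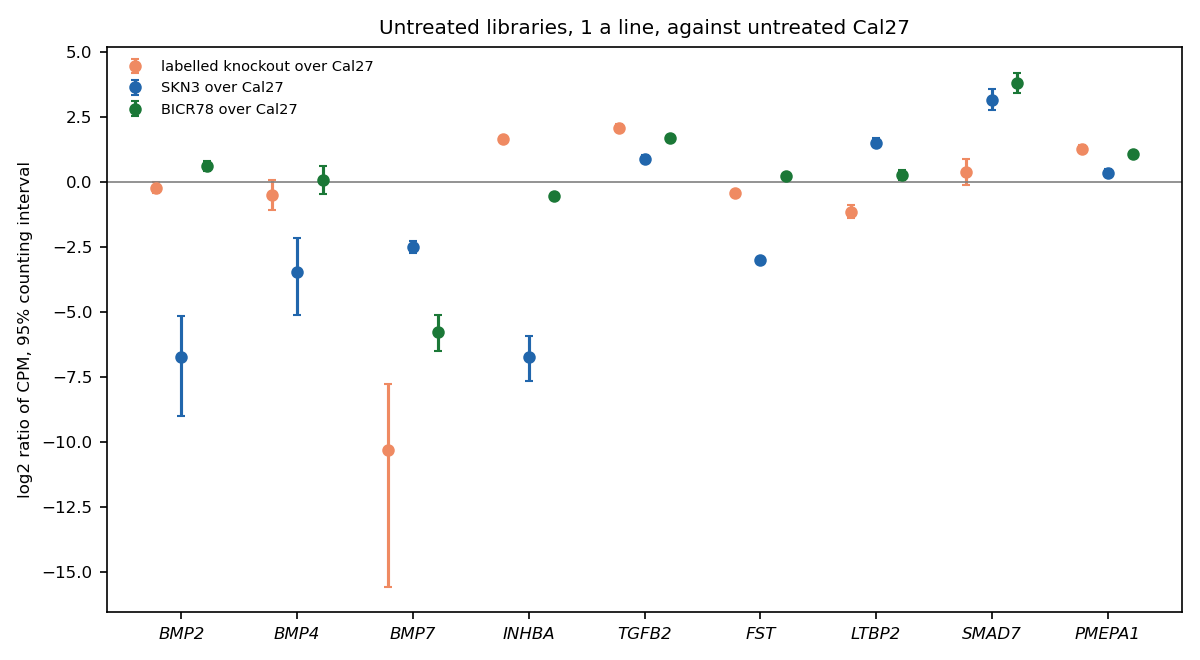
Log2 ratio of CPM for each gene in the untreated labelled knockout, SKN3 and BICR78 over untreated Cal27 (1 library a line), with 95% counting intervals. INHBA and BMP2 in SKN3 lie near 105-fold lower, SMAD7 is 8.94-fold higher in SKN3 and 14-fold higher in BICR78, and BMP7 lies under Cal27 in all 3.

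Likeness of profile was measured as the root mean square difference of log2 CPM, centred over the 10 libraries, with the 3 nearest genes kept for each gene. The gene nearest to INHBA was SLC1A3, a glutamate transporter (0.348), followed by BACE2 (0.457) and HS3ST1 (0.485). LTBP2 was nearest to TLL2 (0.495), TGFB2 to PLB1 (0.225) and BMP2 to SLC6A11 (0.3). BMP7 had no close match, its nearest gene being SOX2, an epithelial and stem cell transcription factor, at 1.21. SMAD7 was nearest to GOLGA8T (0.21), PMEPA1 to AL353743.1 (0.219) and BMP4 to CAVIN3 (0.311). These distances rest on few independent samples and on lines that differ at many genes. They are not scaled by a gene's own spread over the 10 libraries, so equal distances are not equally close matches. That spread was 0.575 for PMEPA1, 0.622 for TGFB2, 0.946 for BMP4, 1.36 for SMAD7 and 2.36 for INHBA.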

How the data were processed

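RNA from 10 libraries was analysed. Per the labels' protocols, RNA was extracted with TRIzol and depleted of ribosomal RNA before library preparation. The submitters' processing notes name hg38 as the build, and HISAT2 2.1.0, featureCounts 1.6.1, CASAVA 1.7 and Picard 2.23.1 as tools. The sources used here state neither the annotation nor the strand setting, so reads of overlapping antisense genes cannot be told apart. Values are the authors' deposited counts per gene, whole numbers that were not normalized. The 7 CUT&Tag samples were not analysed here.

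Samples were grouped by title. The 3 groups of 2 libraries were fitted together over the whole table in edgeR 4.0.16 (R 4.3.3): default low-count filter, TMM scaling and quasi-likelihood F test, with p-values adjusted by Benjamini-Hochberg over 13241 genes at a threshold of 0.05. The test was first run on simulated counts. The common biological coefficient of variation was 2.6%, and 3 residual degrees of freedom remain. Levels use TMM over 10 libraries, on 14753 genes with at least 10 counts in 2 or more libraries. Intervals are exact at 95% and cover counting error only. Single libraries have no test. Replicates differed beyond counting noise (chi-square per degree of freedom 1.77 to 2.2).

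The members, the pathway lists and the tests were chosen with earlier results of these data known. Named genes were the members and NSD1, the 4 genes with the lowest adjusted p among those called per list, a fixed set of 20 targets, receptors and SMADs whatever their p, and the 3 genes of nearest profile; only some of these are printed. HEY1, MSX1, COL1A1, NBL1 and FBN1 were named outside this rule, after their values were seen. Some genes that the rule names are not reported here. Promoter windows are from RefSeq (GRCh38.p14). Alternatives were DESeq2 1.42.0, other scalings and filters, fits of 2 groups, a replicate block, addition of the untreated pair, and each library left out in turn.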

Additional observations from a re-analysis of the deposited data

Results flagged for a closer look

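The labelled knockout differed from Cal27 in opposite directions in the DMSO and untreated sets for 3 genes called with DMSO. For FST the log2 difference was -0.409 in the untreated pair and 0.673 with DMSO. For LTBP2 it was -1.13 untreated and 1.83 with DMSO. For PMEPA1 it was 1.28 untreated and -0.369 with DMSO. The untreated pair has 1 library a group, and the difference between the sets was not tested.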

How the results depend on the processing

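The knockout comparison gave 4749 called genes, and 2902 (1311 higher, 1591 lower) with the untreated pair added and the set as a term; the cause was not tested. In that fit the PMEPA1 difference reversed to 0.2121 and was not called. Without TMM, on library sizes, the knockout comparison split into 2978 higher and 2088 lower (2169 and 2580 with TMM), and the labelled knockout with EPZ-6438 against Cal27 into 4016 and 2815 (3456 and 3428 with TMM). Leaving out each library gave 3463 to 4768 calls in the knockout comparison, 5344 to 6524 with the inhibitor and 5830 to 6808 in the remaining one, and 33 to 39, 31 to 40 and 39 to 46 among the other pathway genes. DESeq2 called 3248, 4924 and 5250 genes. A replicate block gave 4512, 6370 and 6718, without the calls of BMP4 against Cal27 (-0.9121), and of TGFB3 (-1.001) and ACVR1C (0.3363) with EPZ-6438, and of NBL1 (-0.1516) and FBN1 (-1.538) in the knockout comparison. The numbers did not pair the libraries, with deviations of same-numbered libraries correlated at 0.00347, -0.0443 and 0.014. Over the 27 differences of the 9 genes, 345 of 360 recomputed values stayed called in the same direction or stayed uncalled. Another 12 lost the call, 2 gained it and 1 reversed. A change of sign in a difference called in neither fit was not counted as reversed. SMAD7 in the knockout comparison was such a case, at -0.145 and, with the untreated pair added, 0.04748. For the 219 differences of other pathway genes, by the same rule, 2744 of 2905 were unchanged, 125 lost the call, 36 gained it and none reversed. Of 54 recomputed values of the untreated libraries, 51 moved by less than counting error. Depth limits BMP4, BMP7, SMAD7, SMAD6, SMAD9 and MSX2 in the first set, which rest on few counts.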
